A study of Mus musculus with 107 samples.

Results

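Dazl, Sycp3, Sohlh2, Hormad1, Stk31, Mov10l1, Stag3, Piwil2, Mael and Ddx4 are 10 genes of germ cells and meiosis, taken by name from 51435 genes with a row in the count files. The choice was made with earlier results of these data known. All 10 were among the 19993 genes with enough counts to be tested. Their RNA was followed in mouse embryonic stem (ES) cells of the B6NJ line, in the parental line and in 8 clones from which a distal element bound by Polycomb repressive complex 2 (PRC2) had been removed, and the PRC2 and H3K27me3 peaks at each gene were read from E14 mouse ES cells.

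Germ cells make a set of proteins that other cells keep silent, among them the proteins that pair and hold meiotic chromosomes and the machinery of PIWI-interacting RNAs (piRNAs), which silences transposons. Mouse ES cells already transcribe some of these genes at a low level. Their promoters are known to be held down by DNA methylation and by PRC1.6, a Polycomb complex whose subunits MGA with MAX and E2F6 with a DP partner bind E-boxes and E2F sites, while PRC2 writes H3K27me3 mainly at developmental genes.

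The 8 clones carry deletions on chromosomes 9 (clones F1 and G9), 7 (D4 and F4), 3 (C2 and H7) and 2 (D10 and G5). The labels place the deleted intervals at chr9:37451506-37461721 and chr7:143440438-143450716 (mm10), and the sources used here give no interval for chromosomes 3 and 2. Each line was sequenced as 3 libraries of polyA RNA, with 2 for clone chr9 F1, and all lines were grown on irradiated feeder fibroblasts with the kinase inhibitors PD0325901 and CHIR99021. Each line is a single clone set against a single parental line, and nothing in the labels ties the libraries of a line to separate cultures. The p-values therefore rest on spread between libraries that may be only technical. None of the 10 genes lies on chromosome 9, 7 or 2, and Sohlh2 and Hormad1 lie on chromosome 3. ES cell markers were high in every line: the summed level of 10 of them ran from 7599 CPM (counts scaled to library size with TMM factors) in chr9 F1 to 9254 CPM in chr2 D10. Single markers moved in both directions behind this sum. In the chr2 clones Dppa5a rose from 1970 to 5106 and 4139 CPM, while Klf4 fell from 294 to 120 and 158 CPM. The labels name no library batch. Total counts per library were 90.3 to 128 M in the parental and chr9 lines and 39.7 to 60.2 M in the chr7, chr3 and chr2 clones. For those 3 deletions, the deletion and any batch that follows this depth cannot be told apart in comparisons with the parental line. The same holds for comparisons of chr9 with those clones. The lowest count of any of the 10 genes in any library was 207.

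Promoter windows of 300 bases around the gene start show how the genes differ in the letters that MGA and E2F6 recognise. The 4 windows printed, from RefSeq on GRCm38.p6, are those of Dazl, which has neither motif, of Hormad1 and Sycp3, which each hold 2 E-boxes and 1 E2F core but whose RNA differed in the order of the lines, and of Ddx4, the gene with the strongest PRC2 peak. Capitals mark the E-box CACGTG and the E2F core GCGGGA, searched on both strands. The 2 motifs did not overlap in these windows.
Dazl, chr17:50293571-50293870, minus strand: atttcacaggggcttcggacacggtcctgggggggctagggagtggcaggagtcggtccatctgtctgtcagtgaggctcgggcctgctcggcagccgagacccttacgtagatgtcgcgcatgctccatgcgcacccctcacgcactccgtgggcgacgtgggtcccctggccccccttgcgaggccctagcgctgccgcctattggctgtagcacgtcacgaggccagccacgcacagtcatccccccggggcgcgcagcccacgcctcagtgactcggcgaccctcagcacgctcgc
Hormad1, chr3:95559427-95559726, plus strand: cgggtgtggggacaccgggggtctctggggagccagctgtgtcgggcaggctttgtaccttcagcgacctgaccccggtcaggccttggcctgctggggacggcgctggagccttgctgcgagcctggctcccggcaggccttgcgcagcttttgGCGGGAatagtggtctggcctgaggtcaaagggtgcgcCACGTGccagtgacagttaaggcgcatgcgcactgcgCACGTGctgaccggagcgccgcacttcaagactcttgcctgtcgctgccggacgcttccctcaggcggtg
Sycp3, chr10:88459337-88459636, plus strand: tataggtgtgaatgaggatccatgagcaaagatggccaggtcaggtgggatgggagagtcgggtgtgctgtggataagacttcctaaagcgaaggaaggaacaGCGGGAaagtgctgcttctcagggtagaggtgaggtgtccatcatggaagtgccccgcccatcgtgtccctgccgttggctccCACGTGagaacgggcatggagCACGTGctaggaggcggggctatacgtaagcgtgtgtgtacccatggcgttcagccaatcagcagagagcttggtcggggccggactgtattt
Ddx4, chr13:112652261-112652560, minus strand: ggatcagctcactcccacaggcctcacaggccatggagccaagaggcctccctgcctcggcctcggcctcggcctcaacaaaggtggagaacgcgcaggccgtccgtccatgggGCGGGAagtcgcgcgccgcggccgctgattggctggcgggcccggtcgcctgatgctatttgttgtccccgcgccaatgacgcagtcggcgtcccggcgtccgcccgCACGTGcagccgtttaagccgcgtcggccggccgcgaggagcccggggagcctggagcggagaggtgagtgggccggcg

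Of the 9 genes with a promoter in the RefSeq table, 7 held an E-box, all but Dazl and Sohlh2, whereas 7.84% of 21263 promoters of protein-coding genes did. The E2F core was present at 5 (Sycp3, Hormad1, Stag3, Mael and Ddx4), against 25.8% of all promoters. In Hormad1 the E-boxes began at positions -57 and -20, and in Sycp3 at positions -64 and -43, with the gene start as 0; the single E-box of Ddx4 began at -29. The observed over expected ratio of CpG dinucleotides ran from 0.545 in Sohlh2, below the median of 0.567 over all promoters, to 1.06 in Stag3, and it was 0.978 in Ddx4 and 0.796 in Dazl. A letter match describes the sequence and shows no binding.

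Dazl encodes an RNA-binding protein that germ cells need for translation of meiotic transcripts, and it varied most of the 10 genes. In the parental line its libraries stood at 20.4, 20.1 and 20.7 CPM. In the chr9 clones they stood at 111 and 106 CPM in F1 and at 169, 170 and 187 CPM in G9, and in the chr2 clones at 102, 110 and 124 CPM in D10 and at 68.0, 61.2 and 72.0 CPM in G5. All 11 libraries of these 4 clones were therefore above every parental library. Dazl was 6.75-fold higher in the chr9 clones than in the parental line (log2 change 2.76 ± 0.07 SE, edgeR quasi-likelihood test, adjusted p = 5.01e-24) and 4.25-fold higher in the chr2 clones (2.09 ± 0.07, adjusted p = 9.61e-22). In the chr7 and chr3 clones its 12 libraries lay between 13.2 and 17.6 CPM, all below the parental libraries, with log2 changes of -0.43 ± 0.07 (adjusted p = 1.84e-06) and -0.50 ± 0.07 (adjusted p = 1.85e-07). The chr9 clones exceeded the chr2 clones by 0.67 ± 0.05 (adjusted p = 2.25e-12), while chr7 and chr3 differed by 0.06 ± 0.06 (adjusted p = 0.509). In bulk RNA, more cells of a kind and more RNA per cell cannot be told apart.

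Sohlh2, a basic helix-loop-helix transcription factor of early germ cell differentiation, was high in the same clones. Its parental libraries had 31.8, 34.3 and 32.8 CPM. The chr9 libraries had 60.3 and 59.5 CPM in F1 and 87.5, 86.5 and 82.0 CPM in G9, and the chr2 libraries 130, 114 and 117 CPM in D10 and 66.9, 64.9 and 69.7 CPM in G5, with no overlap with the parental line. The log2 changes were 1.12 ± 0.05 for chr9 (adjusted p = 6.69e-18) and 1.45 ± 0.05 for chr2 (adjusted p = 1.54e-21). In the chr7 clones Sohlh2 rose by 0.38 ± 0.05 (adjusted p = 3.86e-08). In the chr3 clones the difference was 0.13 ± 0.05 (adjusted p = 0.022), with libraries overlapping the parental ones, and the call was lost without parental replicate 1, parental replicate 3 or chr3 H7 replicate 2 (adjusted p = 0.121, 0.0606 and 0.0581).

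**Figure D1:**
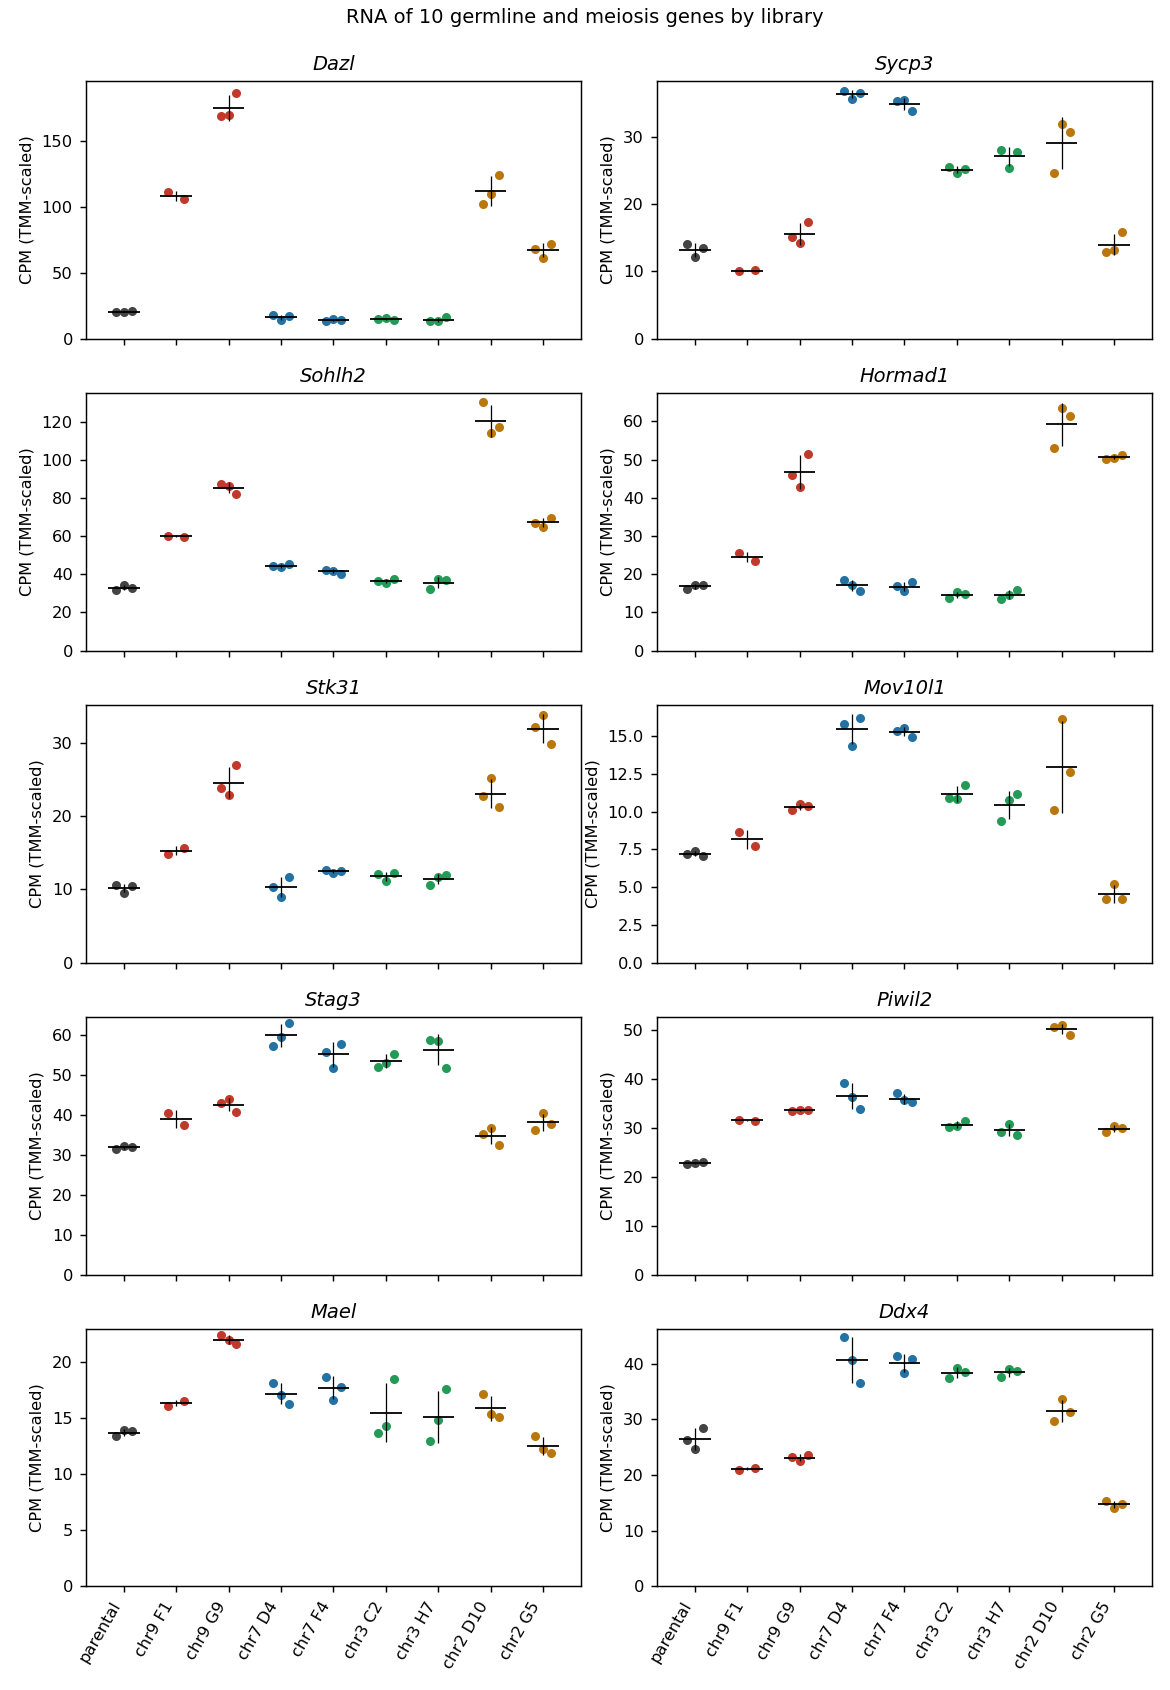
RNA level (CPM, TMM-scaled, vertical axis from 0) of each gene in each of 26 libraries, by line (horizontal axis); points are libraries, the horizontal bar is the mean and the vertical line the SD, and colours mark the deletion. Dazl reaches 187 CPM in a chr9 G9 library and stays at or under 17.6 CPM in every chr7 and chr3 library, while Sycp3 reaches 36.8 CPM in chr7 D4 and stays at or under 17.3 CPM in the parental, chr9 and chr2 G5 libraries.

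Hormad1, Sycp3 and Stag3 build the chromosome axis of meiosis. Hormad1 is a HORMA-domain protein that marks unpaired axes. Its parental libraries had 16.1, 17.1 and 17.2 CPM, those of chr9 F1 25.5 and 23.5 CPM and those of chr9 G9 45.9, 42.9 and 51.5 CPM. In the chr2 clones it stood at 52.9, 63.4 and 61.5 CPM (D10) and at 50.1, 50.5 and 51.2 CPM (G5). It thus rose in all 4 of these clones, by 1.01 ± 0.07 in chr9 (log2, adjusted p = 2.75e-13) and by 1.70 ± 0.07 in chr2 (adjusted p = 8.7e-20). The difference between chr7 clones and the parental line was 0.01 ± 0.07 (adjusted p = 0.929), with overlapping libraries. In the chr3 clones Hormad1 fell by 0.21 on the log2 scale (SE 0.07, adjusted p = 0.00932). With upper-quartile factors that fall had an adjusted p of 0.0605.

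Sycp3, a structural protein of the axial element, had a different order of lines. Its parental libraries had 14.1, 12.1 and 13.5 CPM. The chr7 libraries had 36.8, 35.7 and 36.6 CPM in D4 and 35.3, 35.5 and 33.9 CPM in F4, and the chr3 libraries 25.6, 24.6 and 25.2 CPM in C2 and 28, 25.4 and 27.8 CPM in H7. All 12 were above the parental libraries. Sycp3 rose 2.69-fold in chr7 (log2 change 1.43 ± 0.08, adjusted p = 6.21e-17) and 1.97-fold in chr3 (0.98 ± 0.07, adjusted p = 6.28e-13), and the chr7 clones were above the chr3 clones by 0.45 ± 0.06 (adjusted p = 8.99e-07). Across the chr9 clones it differed from the parental line by -0.08 ± 0.08 (adjusted p = 0.442), with F1 lower (10.1 and 10.2 CPM) and G9 higher (15.1, 14.2 and 17.3 CPM). In chr2 the mean rose by 0.61, with D10 at 24.7, 32.0 and 30.7 CPM and G5 at 12.9, 13.2 and 15.8 CPM, so that G5 overlapped with the parental line. Sycp3 overlaps the gene Chpt1 in the RefSeq table, and the sources used here do not say whether counting used the strand, so reads of the 2 genes could be mixed.

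Stag3, a cohesin subunit of meiotic chromosomes, rose in every deletion. Its parental libraries lay between 31.4 and 32.2 CPM, and every clone library lay above them. The 6 chr7 libraries ran from 51.7 to 62.8 CPM and the 6 chr3 libraries from 51.7 to 58.6 CPM. The log2 changes were 0.85 ± 0.05 in chr7 (adjusted p = 2.97e-15) and 0.78 ± 0.05 in chr3 (adjusted p = 3.06e-14), against 0.35 ± 0.05 in chr9 (adjusted p = 2.97e-06) and 0.19 ± 0.05 in chr2 (adjusted p = 0.00182). Of the chr2 clones, G5 passed (0.26, adjusted p = 0.000507) and D10 did not (0.13, adjusted p = 0.067). The chr9 clones were below the chr7 clones by -0.50 ± 0.04 (adjusted p = 1.21e-11). Stag3 overlaps Gal3st4 and Gpc2, and the same doubt about shared reads holds for it and for Hormad1 (Gm40097), Stk31 (Gm17060), Mov10l1 (Gm23737) and Piwil2 (Gm22725 and Gm24890).

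The other 5 genes belong to the piRNA machinery or its surroundings. Piwil2 (Mili), the PIWI protein of fetal and early male germ cells, was above the parental line in every library of every clone. Its parental libraries had 22.6, 22.8 and 22.9 CPM, and the 23 clone libraries ran from 28.5 CPM in chr3 H7 to 50.9 CPM in chr2 D10. It rose by 0.76 ± 0.05 in chr2 (adjusted p = 1.91e-15), 0.67 ± 0.05 in chr7 (adjusted p = 5.32e-14), 0.51 ± 0.05 in chr9 (adjusted p = 2.55e-10) and 0.40 ± 0.05 in chr3 (adjusted p = 6.32e-09), all on the log2 scale. Piwil2 and Stag3 were the 2 of the 10 genes whose libraries lay above the parental ones in all 4 deletions. In single deletions 15.6% (chr9), 22.9% (chr7), 21.9% (chr3) and 21.2% (chr2) of all tested genes lay above. The share of all genes for the 4 deletions together was not computed, so this count is not read as a trait of the 10 genes. All 4 comparisons share the same 3 parental libraries.

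Mov10l1, the RNA helicase that starts piRNA production, and Ddx4 (Vasa), a helicase of germ granules, had their highest means in the chr7 clones, though chr7 and chr3 did not pass as different for Ddx4 (0.07 ± 0.05, adjusted p = 0.282), nor chr7 F4 and chr2 D10 for Mov10l1 (adjusted p = 0.0751). Mov10l1 had 7.21, 7.38 and 7.08 CPM in the parental libraries, 15.8, 14.3 and 16.2 CPM in chr7 D4 and 15.3, 15.6 and 15.0 CPM in chr7 F4. It rose 2.13-fold in chr7 (log2 change 1.09 ± 0.10, adjusted p = 1.12e-11), 1.5-fold in chr3 (0.58 ± 0.09, adjusted p = 3.26e-06) and 1.27-fold in chr9 (0.35 ± 0.10, adjusted p = 0.00449). Of the chr9 clones, G9 passed (0.52, adjusted p = 0.000139) and F1 did not (0.18, adjusted p = 0.308). In chr2 the mean of the clones differed by 0.09 ± 0.10 (adjusted p = 0.438), with D10 at 10.1, 16.2 and 12.6 CPM above the parental line and G5 at 4.23, 5.2 and 4.2 CPM below it. Ddx4 had 26.2, 24.7 and 28.5 CPM in the parental libraries and 36.5 to 44.7 CPM in the 12 chr7 and chr3 libraries, which did not overlap with them. It rose by 0.61 ± 0.06 in chr7 (adjusted p = 4.53e-11) and by 0.54 ± 0.06 in chr3 (adjusted p = 8.58e-10). In the chr9 clones, at 21 to 23.7 CPM, it fell by 0.26 on the log2 scale (SE 0.06, adjusted p = 0.000535). The chr2 mean fell by 0.29 (SE 0.06, adjusted p = 3.31e-05), but D10 was above the parental line (29.7, 33.6 and 31.4 CPM) and G5 below it (15.3, 14.2 and 14.8 CPM).

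Stk31, a Tudor-domain protein with a kinase-like domain found in germ cells, was higher than in the parental line in all 4 chr9 and chr2 clones and highest in chr2 G5, where Dazl and Hormad1 were below chr2 D10. Its parental libraries had 10.6, 9.51 and 10.5 CPM, those of chr9 G9 23.9, 22.9 and 27 CPM and those of chr2 G5 32.2, 33.9 and 29.9 CPM. It rose by 0.93 ± 0.08 in chr9 (adjusted p = 1.7e-11) and by 1.41 ± 0.08 in chr2 (adjusted p = 7e-17). In chr3 it differed by 0.19 ± 0.07 (adjusted p = 0.0291), a call lost without parental replicate 2, chr3 C2 replicate 3 or chr3 H7 replicate 3 (adjusted p = 0.159, 0.0553 and 0.0568), and in chr7 by 0.16 ± 0.07 (adjusted p = 0.0661). The chr7 difference passed without chr7 D4 replicate 2 (adjusted p = 0.0147), and with RLE factors, upper-quartile factors or DESeq2 (adjusted p = 0.0167, 0.00802 and 0.0119). Mael (Maelstrom), a germ granule protein needed for transposon silencing, moved least. Its parental libraries had 13.4, 14 and 13.9 CPM. It reached 22.5, 22.1 and 21.6 CPM in chr9 G9, and its log2 changes were 0.47 ± 0.08 in chr9 (adjusted p = 3.2e-05), 0.35 ± 0.08 in chr7 (adjusted p = 0.000418), 0.16 ± 0.08 in chr3 (adjusted p = 0.0921) and 0.04 ± 0.08 in chr2 (adjusted p = 0.69). Of the chr9 clones, G9 passed (0.68, adjusted p = 2.15e-07) and F1 did not (0.25, adjusted p = 0.0673). Without chr3 C2 replicate 1 or chr3 H7 replicate 1 the chr3 difference passed the test (adjusted p = 0.0343 and 0.0229), as it did with RLE factors, upper-quartile factors or DESeq2 (adjusted p = 0.0346, 0.0234 and 0.0282).

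Counted together, 9 of the 10 genes passed the test in chr9 against the parental line, 8 higher and 1 lower, while 37.7% of all tested genes passed, 17.1% higher and 20.6% lower. With upper-quartile factors 56.7% of the calls over all genes were higher, against 45.4% with TMM factors. In chr7, 7 genes were higher and 1 lower, with 63.3% of all genes called, 27.6% higher and 35.7% lower. In chr3, 7 were higher and 2 lower, with 60.8% called, 25.4% higher and 35.4% lower. In chr2, 7 were higher and 1 lower, with 65.3% called, 31.2% higher and 34.1% lower. A call alone therefore sets few of these genes apart, and the sizes and directions carry the description. The 10 genes were chosen with earlier results of these data known, so an excess over all genes is no independent support. The median log2 change of the 10 genes was 0.49 in chr9, 0.49 in chr7, 0.29 in chr3 and 0.69 in chr2, beside medians of -0.02, -0.07, -0.07 and -0.02 over all tested genes. Libraries lay wholly above the parental ones for 8 genes in chr9, 7 in chr7, 6 in chr3 and 6 in chr2, where 15.6%, 22.9%, 21.9% and 21.2% of all genes did. They lay wholly below for 1, 1, 2 and 0 genes, where 17.1%, 31.4%, 31.2% and 24.2% did. Both clones passed in the same direction for 6 higher and 1 lower gene in chr9 (8.33% and 7.5% of all genes), for 7 and 1 in chr7 (21.7% and 28.7%), for 5 and 2 in chr3 (19.9% and 27.3%) and for 5 and 0 in chr2 (19.3% and 21%). The clones of a deletion share the 3 parental libraries in this count.

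Clone by clone against the parental line, the number of the 10 genes called ran from 7 to 10. In chr9, F1 had 6 higher and 2 lower and G9 had 9 higher and 1 lower, where 24.3% and 45.6% of all genes were called. In chr7, D4 had 7 and 1 and F4 had 8 and 1, beside 59.5% and 56.9% of all genes. In chr3, C2 had 7 and 2 and H7 had 5 and 2, beside 55.8% and 55.2%. In chr2, D10 had 9 higher and 0 lower, the exception being Stag3 (0.13, adjusted p = 0.067), while G5 had 6 higher and 2 lower, beside 66.5% and 54.9%.

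**Figure D2:**
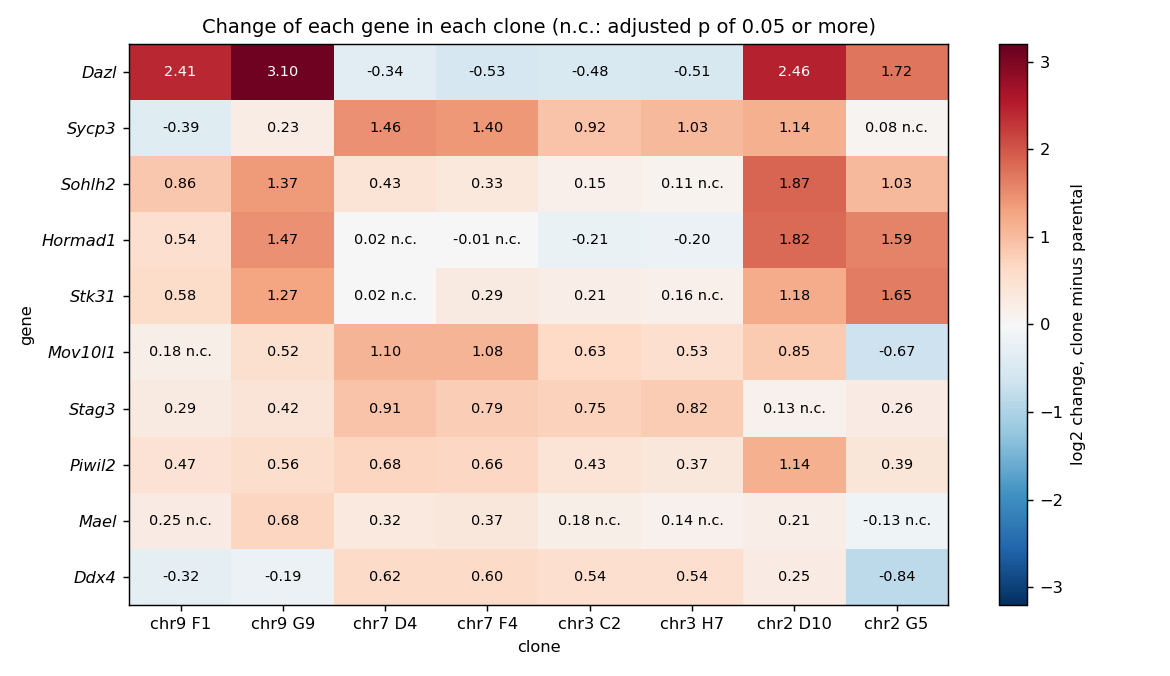
Log2 change of each gene (rows) in each clone (columns) against the parental line, from edgeR; n.c. marks an adjusted p of 0.05 or more. Dazl, Sohlh2, Hormad1 and Stk31 are red in the chr9 and chr2 clones, up to 3.10 for Dazl in chr9 G9, and Sycp3, Mov10l1, Stag3 and Ddx4 are red in the chr7 and chr3 clones.

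Comparisons that leave the parental line out were made against the 6 clones of the other deletions. The chr9 libraries were deeper than those of all other clones. In every comparison of chr9 with them, the deletion and any batch that follows depth therefore cannot be told apart. For chr7, chr3 and chr2, the 6 other clones include those of chr9. Dazl was higher in chr9 than in those clones by 2.37 ± 0.04 (log2, adjusted p = 1.57e-29) and in chr2 by 1.48 ± 0.04 (adjusted p = 4.35e-24). Sycp3 was higher in chr7 than in the other clones by 0.93 ± 0.05 (adjusted p = 4.06e-17), and Ddx4 by 0.61 ± 0.04 (adjusted p = 3.35e-15). All 10 genes passed in chr9 and in chr2, 9 in chr7 and 8 in chr3, with 71.9%, 57.5%, 55.3% and 55.4% of all genes passing. Between single deletions, chr7 and chr3 differed least, with 6 of 10 genes called, all higher in chr7, where 23.9% of all genes were called, 10.6% higher and 13.3% lower. Of the 10 genes, 9 were called between chr9 and chr7 (70.5% of all genes), 10 between chr9 and chr3 (69.5%), 9 between chr9 and chr2 (62.8%), 10 between chr7 and chr2 (55.1%) and 9 between chr3 and chr2 (57.4%). Among the pairs of similar depth, Dazl was lower in chr7 than in chr2 by -2.52 ± 0.06 (adjusted p = 2.52e-26), and Ddx4 was higher by 0.90 ± 0.05 (adjusted p = 5.71e-17). The labels do not say whether the libraries of such pairs were made together, so similar depth does not exclude a batch.

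The 2 clones of a deletion were close for chr7 and chr3 and far apart for chr9 and chr2. None of the 10 genes passed between chr7 F4 and D4 or between chr3 H7 and C2 in edgeR, where 0.965% and 0.86% of all genes passed; over all genes 2888 and 2600 had an unadjusted p under 0.05. Of the 10, 2 (Dazl and Stk31) had an unadjusted p under 0.05 between the chr7 clones and 0 between the chr3 clones, and DESeq2 called 0 in both. Without chr7 D4 replicate 3, Stk31 passed between the chr7 clones (log2 difference 0.37, adjusted p = 0.027). Between chr9 G9 and F1, 7 passed and all were higher in G9 (31.5% of all genes passed, 14.1% higher and 17.4% lower in G9), led by Hormad1 at 0.93 ± 0.08 (adjusted p = 7.68e-10) and Dazl at 0.69 ± 0.08 (adjusted p = 9.44e-08). The smallest of these calls, Mov10l1 at 0.34 ± 0.12 (adjusted p = 0.0253), was lost without chr9 F1 replicate 2, chr9 G9 replicate 2 or chr9 G9 replicate 3 (adjusted p = 0.255, 0.0504 and 0.0513). Between chr2 G5 and D10, 9 passed, 8 lower and 1 higher in G5, with 50.7% of all genes passing, 25.7% higher and 25% lower. Mov10l1 was lower in G5 by -1.52 ± 0.12 (adjusted p = 2.39e-12), Ddx4 by -1.10 ± 0.07 (adjusted p = 2.31e-14) and Sycp3 by -1.06 ± 0.09 (adjusted p = 7.75e-12), while Stk31 was higher by 0.47 ± 0.08 (adjusted p = 1.6e-05). Stag3 (0.13 ± 0.06, adjusted p = 0.0751) passed without chr2 D10 replicate 2 or chr2 G5 replicate 1 (adjusted p = 0.0472 and 0.0468). The fall of Hormad1 in G5 (-0.23 ± 0.07, adjusted p = 0.0112) was lost without chr2 D10 replicate 2 or 3 (adjusted p = 0.0696 and 0.0505).

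**Figure D3:**
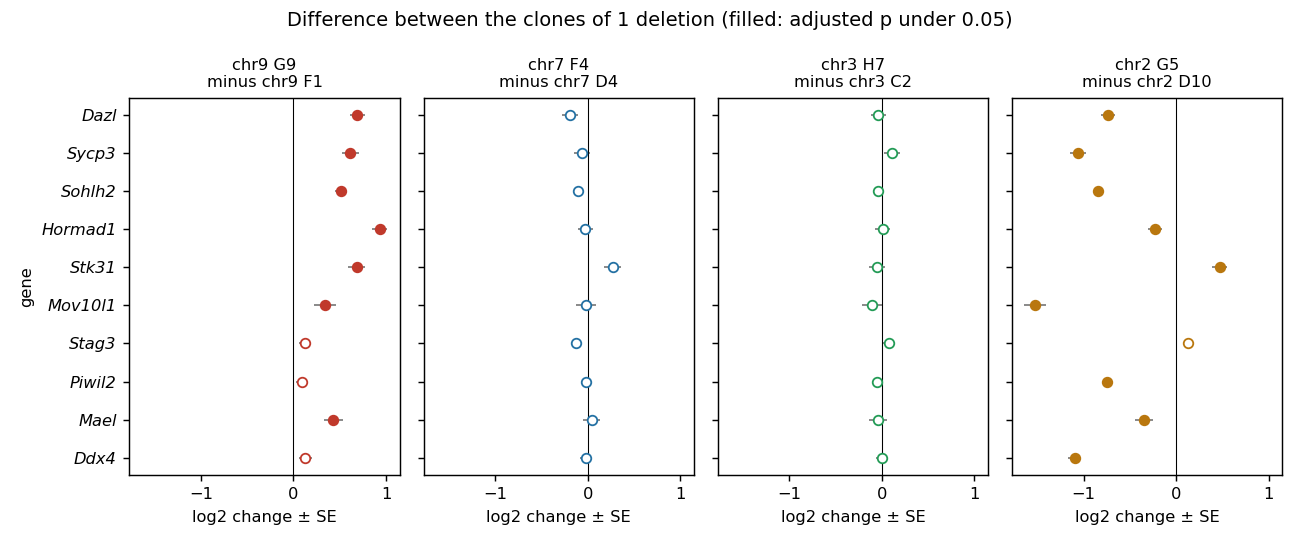
Log2 difference between the 2 clones of each deletion (horizontal axis) for each gene (vertical axis) with its SE; filled points passed at an adjusted p of 0.05. The chr7 and chr3 panels hold only open points near 0, and the chr2 panel runs from -1.52 for Mov10l1 to 0.47 for Stk31.

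The order of the 9 lines differed between genes, with neighbours tested in the same model. Dazl was highest in chr9 G9 (175 CPM), above chr2 D10 (112 CPM, adjusted p = 3.95e-09 between them), and D10 did not differ from chr9 F1 (108 CPM, adjusted p = 0.641). Below the parental line, the chr7 and chr3 clones at 14.1 to 16.1 CPM did not differ from their neighbours. Sohlh2 was highest in chr2 D10 (120 CPM), then chr9 G9 (85.4 CPM), chr2 G5 (67.2 CPM) and chr9 F1 (59.9 CPM), each above the next. Hormad1 was highest in chr2 D10 (59.3 CPM), followed by chr2 G5 (50.6 CPM) and chr9 G9 (46.8 CPM), and the last 2 did not differ (adjusted p = 0.212). For Ddx4 the 4 chr7 and chr3 clones, at 38.4 to 40.6 CPM, were not told apart from their neighbours among themselves, and the lowest of them was above chr2 D10 (31.6 CPM, adjusted p = 0.000576). D10 was above the parental line (adjusted p = 0.00098), the chr9 clones were lower at 21.2 to 23.1 CPM, and chr2 G5 was lowest (14.8 CPM, adjusted p = 8.13e-07 against chr9 F1). The highest line mean exceeded the lowest 12.4-fold for Dazl, 4.07-fold for Hormad1, 3.65-fold for Sohlh2, 3.59-fold for Sycp3 and 1.76-fold for Mael. The median of this ratio over 13894 tested genes with a mean of at least 1 CPM was 1.74.

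Over the 9 line means of log2 CPM, Pearson's r was 0.94 between Hormad1 and Sohlh2, 0.94 between Hormad1 and Stk31 and 0.88 between Dazl and Sohlh2. It was 0.88 between Mov10l1 and Ddx4 and 0.84 between Sycp3 and Ddx4, and -0.69 between Dazl and Ddx4. These 2 groupings were seen in the values and are a description; the 9 points share libraries of unequal depth. Among 12398 named genes of at least 1 CPM, the genes most like Dazl were Prickle1 (r = 0.980), Tmem181a (0.978) and Col5a1 (0.978), and Sohlh2 was closest to Cd55 (0.984), Nr3c1 (0.984) and Tex19.2 (0.982). Hormad1 was closest to Ttc25 (0.993), Sycp3 to Coq8a (0.992), Ddx4 to Cfap300 (0.992), Stk31 to Magee1 (0.987), Piwil2 to Cxcl16 (0.983), Mov10l1 to Anxa5 (0.983), Stag3 to Sv2a (0.956) and Mael to H2afj (0.916).

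In E14 cells, 4 of the 10 genes had a PRC2 peak within 2 kb of their start and 1 had an H3K27me3 peak, beside 25.9% and 12.1% of 17492 protein-coding genes. The folds are the authors' enrichments of pooled libraries. Ddx4 had the strongest PRC2 peak, 2.79-fold and 1532 bp long at chr13:112651595-112653126, over its start, with an H3K27me3 peak of 3.23-fold and 615 bp that began 454 bp from the start on the side away from the gene body. The PRC2 peaks over the starts of Mael (1.88-fold, 811 bp), Sohlh2 (1.59-fold, 502 bp) and Sycp3 (1.54-fold, 318 bp) had no H3K27me3 peak beside them; the nearest lay 13499, 266783 and 102136 bp away. All 4 folds were below the median of 2.95 over the 4522 genes with a PRC2 peak, and none reached 5-fold, as 7.98% of genes did. Dazl, Hormad1 and Stk31, which rose most in the chr9 and chr2 clones beside Sohlh2, had no PRC2 peak within 101746, 34346 and 158785 bp. B6NJ peaks were not analysed here, so these maps describe another ES cell line than the one whose RNA was measured.

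**Figure D4:**
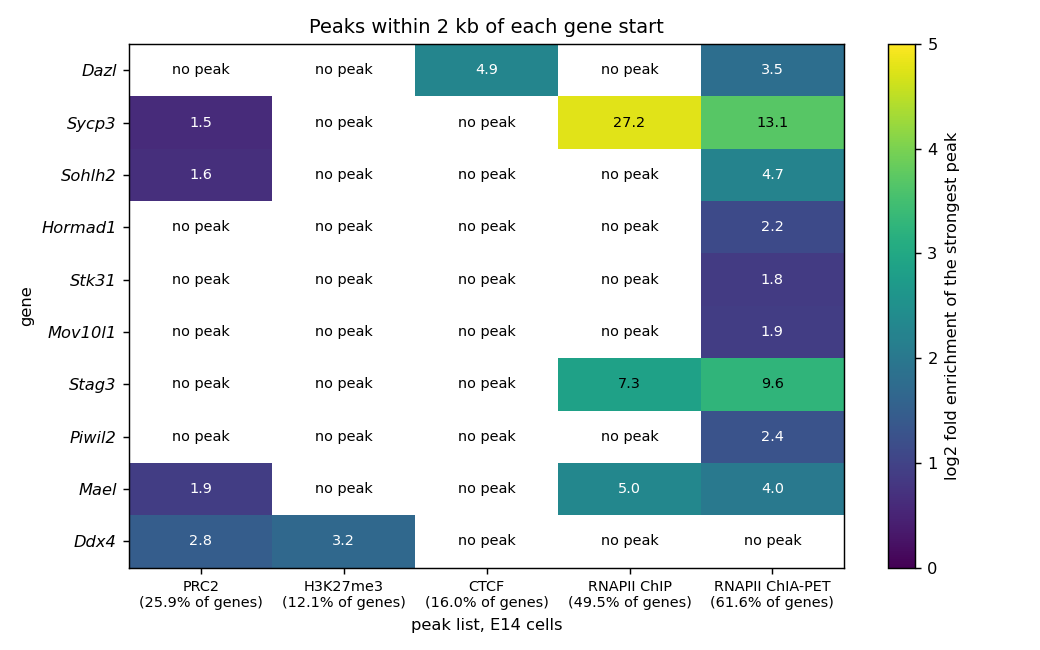
Fold enrichment of the strongest peak within 2 kb of each gene start (rows) in 5 peak lists from E14 cells (columns), coloured on a log2 scale; the share of protein-coding genes with such a peak stands under each list. Ddx4 is the gene with both a PRC2 and an H3K27me3 peak, and 9 of 10 genes have an RNA polymerase II ChIA-PET peak.

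RNA polymerase II (RNAPII) and CTCF peaks complete the picture of these starts in E14 cells. RNAPII ChIP peaks lay at Sycp3 (27.2-fold), Stag3 (7.28-fold) and Mael (4.96-fold), where 49.5% of genes had one. The larger RNAPII ChIA-PET list had a peak at every gene except Ddx4, where 61.6% of genes had one, from 1.82-fold at Stk31 to 13.1-fold at Sycp3. Sycp3 thus had the highest RNAPII enrichment of the 10. Dazl had the sole CTCF peak, 4.86-fold and 522 bp from its start, at chr17:50292763-50293098; 16% of genes had one. For Piwil2, whose strand is missing from the reference table, either end of the gene was taken as the start.

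Of the 10 genes, 9 had an anchor of a pooled E14 PRC2 interaction within 2 kb, as did 78.5% of protein-coding genes. No gene had more than 4 such interactions or more than 9 paired-end tags in 1 of them. In the 10 Ezh2 ChIA-PET lists of B6NJ lines (parental, chr9 and chr7), Dazl, Sohlh2, Hormad1, Stk31, Mov10l1 and Stag3 had no interaction at their start. In these lists 9.38% to 17.3% of protein-coding genes had one. Mael had one in 9 of 10 lists, with 3 to 277 tags and anchors of up to 41.2 kb, which reach well beyond its start. Ddx4 had one in 4, with 3 to 7 tags, and Sycp3 in 1. Piwil2 had one in 4 lists, with anchors of up to 169.6 kb, so they do not point to this gene.

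Other genes of the same pathways were read from lists that exclude the 10. These lists too were chosen with earlier results of these data known. Each gene is named for the deletion of its largest change called in both clones, which does not make the change particular to that deletion. Their counts stand beside all tested genes, of which 17.1% were higher and 20.6% lower in chr9, 27.6% and 35.7% in chr7, 25.4% and 35.4% in chr3, and 31.2% and 34.1% in chr2. Of 18 tested genes of the piRNA pathway and germ granule, 11 were higher and 4 lower in chr9, 8 and 4 in chr7, 6 and 5 in chr3 and 10 and 4 in chr2, with median log2 changes of 0.28, 0.28, -0.10 and 0.27. The chr3 counts lie near the shares over all genes. Asz1, a germ granule protein of the piRNA pathway, rose from 0.202 CPM in the parental line to 0.928 and 3 CPM in the chr9 clones (log2 change 3.05 ± 0.35, adjusted p = 2.84e-08). Fkbp6, a co-chaperone of piRNA loading, rose from 9.14 to 52.6 and 22.8 CPM in chr2 (1.92 ± 0.08, adjusted p = 4.68e-20), as did Tdrd7, a Tudor-domain protein, from 2.73 to 12 and 8.92 CPM (1.92 ± 0.10, adjusted p = 8.13e-17). Of 17 axis and synaptonemal complex genes, 9 were higher and 1 lower in chr9, 8 and 3 in chr7, 6 and 7 in chr3 and 11 and 1 in chr2. Smc1b, the meiotic SMC subunit that works with Stag3, rose from 5.57 to 40.0 and 34.8 CPM in chr2 (2.74 ± 0.08, adjusted p = 3.95e-23). It also rose in chr9, chr7 and chr3 (log2 changes 1.66, 1.63 and 1.30). Tex12, of the synaptonemal complex, rose from 0.144 to 0.824 and 0.835 CPM in chr2 (2.49 ± 0.39, adjusted p = 1.46e-06), and Meikin, a kinetochore protein of meiosis, from 0.0364 to 0.213 and 0.186 CPM (2.42 ± 0.68, adjusted p = 0.00259).

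Of 21 tested genes of meiotic recombination and entry, 8 were higher and 3 lower in chr9, 10 and 5 in chr7, 6 and 6 in chr3 and 9 and 6 in chr2. Brdt, a testis bromodomain protein, rose from 3.71 to 9.10 and 13.7 CPM in chr9 (log2 change 1.59 ± 0.14, adjusted p = 4.52e-11). Meiob, a recombination factor, rose from 0.0872 to 0.424 and 0.614 CPM in chr2 (2.52 ± 0.48, adjusted p = 2.97e-05), and Msh4 from 0.445 to 1.03 and 1.25 CPM in chr7 (1.35 ± 0.33, adjusted p = 0.00057). Of 26 tested germ cell regulators, 14 were higher and 2 lower in chr9, 9 and 7 in chr7, 5 and 10 in chr3 and 15 and 4 in chr2. In chr7 and chr3 this is near the shares over all genes (27.6% and 25.4% higher, 35.7% and 35.4% lower). Stk33, a kinase needed for sperm formation, rose from 0.160 CPM in the parental line to 11.3 and 18.8 CPM in the chr2 clones (6.44 ± 0.24, adjusted p = 8.93e-21). Rhox13, a homeobox gene of germ cells, rose from 0.441 to 3.16 and 8.02 CPM in chr9 (3.50 ± 0.19, adjusted p = 4.95e-16). Lhx8, an oocyte transcription factor, had 0.00341 CPM in the parental line and 0.209 and 0.0666 CPM in the chr2 clones, and passed the test at these low levels (adjusted p = 0.000584).

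Genes of PRC1.6 and of DNA methylation had more lower than higher calls in each deletion, as did all tested genes (17.1% higher and 20.6% lower in chr9, 27.6% and 35.7% in chr7, 25.4% and 35.4% in chr3, 31.2% and 34.1% in chr2). Of 16 genes of PRC1.6 and its partners, 3 were higher and 10 lower in chr7, 2 and 11 in chr3, 3 and 9 in chr2 and 1 and 8 in chr9. Tfdp1, the DP partner of E2F proteins, went from 292 to 161 and 159 CPM in chr7 (log2 change -0.87 ± 0.04, adjusted p = 2.25e-19), L3mbtl2 from 186 to 110 and 107 CPM (-0.78 ± 0.04, adjusted p = 2.08e-17), and Hdac1, a histone deacetylase, from 470 to 199 and 355 CPM in chr2 (-0.82 ± 0.04, adjusted p = 9.82e-17). Tfdp1 and Hdac1 passed as lower in every deletion. Of the subunits that bind DNA, Mga rose in chr7, chr3 and chr2 (log2 changes 0.46, 0.49 and 0.29) and fell in chr9 (-0.21). E2f6 did not pass in any deletion, and Max passed as lower in each. Of 14 genes of DNA methylation and demethylation, 3 were higher and 6 lower in chr9, 3 and 9 in chr7, 5 and 8 in chr3 and 3 and 11 in chr2. Dnmt3a, a de novo DNA methyltransferase, fell from 229 to 102 and 116 CPM in chr2 (-1.07 ± 0.04, adjusted p = 2.09e-21), and Dnmt3b from 167 to 82.7 and 85.1 CPM in chr7 (-0.996 ± 0.05, adjusted p = 1.82e-17). Dnmt3a also fell in chr7 and chr3 (log2 changes -0.88 and -0.85) and did not pass in chr9 (-0.03). That chr9 mean joins clones on opposite sides of the parental line, at 331 CPM in F1 and 152 CPM in G9. Dnmt3b did not pass in chr9 either (-0.03), with 206 CPM in F1 and 130 CPM in G9. In the chr9 clones Tet3, an enzyme that oxidises methylcytosine, rose from 7.37 to 15.1 and 19.9 CPM (1.23 ± 0.10, adjusted p = 1.81e-11). It also rose in chr2 (log2 change 1.17) and fell in chr7 and chr3 (-0.49 and -0.52).

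Genes of H3K9 methylation and of PRC2 itself moved in both directions. Of 10 H3K9 genes, 1 was higher and 7 lower in chr9 and in chr2, 3 and 4 in chr7 and 4 and 4 in chr3. Trim28, the co-repressor that recruits Setdb1, fell from 1523 to 853 and 914 CPM in chr7 (log2 change -0.79 ± 0.04, adjusted p = 1.4e-16), Wiz from 100.1 to 58.3 and 66.7 CPM in chr3 (-0.68 ± 0.05, adjusted p = 7.86e-14), while Suv39h1, an H3K9 methyltransferase, rose from 32.3 to 54.1 and 51.1 CPM in chr7 (0.70 ± 0.05, adjusted p = 1.99e-13). Of 12 PRC2 genes, 5 were higher and 3 lower in chr9, 5 and 5 in chr7, 6 and 4 in chr3 and 8 and 3 in chr2. Both lists are small beside shares of 17.1% to 31.2% higher and 20.6% to 35.7% lower over all genes, and nothing particular to them is read from the counts. Epop, a PRC2 accessory protein, fell from 121 to 54.6 and 65.1 CPM in chr7 (-1.02 ± 0.10, adjusted p = 6.31e-11), and Phf1, another, rose from 5.97 to 12.8 and 9.46 CPM (0.88 ± 0.09, adjusted p = 1.18e-10), as did Ezh1, the second methyltransferase subunit, from 51.9 to 99.6 and 88.2 CPM (0.85 ± 0.05, adjusted p = 3.18e-15).

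Markers of other cell types also moved with the lines. The summed level of 16 markers of 2-cell-like cells, a rare state of ES cultures, was 35.9 to 36.8 CPM in the parental libraries, 195 to 200.02 CPM in chr9 F1, 62.0 to 68.2 CPM in chr9 G9 and 3.94 to 10.7 CPM in the chr7 and chr3 libraries, with 15 of 15 tested markers higher in chr9 and 14 and 15 lower in chr7 and chr3. In chr2 the sum was 15.1 to 23.5 CPM, with 1 marker higher and 8 lower. The 20 feeder fibroblast markers summed to 238.5 to 268 CPM in the parental line, 256 to 298 CPM in chr9 F1, 368 to 586 CPM in chr9 G9, 188 to 221 CPM in chr7, 176 to 188 CPM in chr3 and 188 to 223 CPM in chr2, with 2 to 3 of the 20 at 0 counts in the chr7 and chr3 clones. Of 18 tested, 16 were higher and 0 lower in chr9, 1 and 11 in chr7, 0 and 15 in chr3 and 4 and 5 in chr2. Of these sums, Fstl1 alone gave 152 CPM in the parental line and 97.4 and 89.5 CPM in the chr2 clones. The 14 primitive endoderm markers summed to 568 to 589 CPM in the parental line and 657 to 694 CPM in the chr9 clones. Their sum was 938 to 1014 CPM in chr2 D10 and 661 to 684 CPM in chr2 G5. It was 566 to 627 CPM in chr7 D4 and 586 to 616 CPM in chr7 F4. In chr3 C2 it was 631 to 687 CPM, within reach of the chr9 clones, and in chr3 H7 584 to 640 CPM. No marker was at 0. Of the 14 markers, 7 were higher and 0 lower in chr9, 5 and 2 in chr7, 5 and 2 in chr3 and 7 and 4 in chr2. The 4 Y-linked genes summed to 7.12 to 7.49 CPM in the parental line, 0.297 to 1.23 CPM in the chr9 clones, 0.104 to 0.429 CPM in the chr2 clones, 2.14 to 5.04 CPM in the chr7 clones, 2.27 to 2.64 CPM in chr3 C2 and 10.1 to 12.5 CPM in chr3 H7. All 4 were lower in chr9 and in chr2, the clones in which Dazl, Sohlh2, Hormad1 and Stk31 were higher. In chr7, 0 were higher and 3 lower, and in chr3 1 and 2, though Dazl was lower in both of these deletions. The part of these markers in the changes of the 10 genes was not tested.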

How the data were processed

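RNA of the B6NJ line and its clones was measured in 26 libraries. The deposited values are raw counts per gene; the submitters' processing notes name Trim Galore 0.4.0, HISAT2 2.1.0 and HTSeq 0.6.1 with mm10; none of the sources says if HTSeq was run with strand. Rows that name no gene were left out: 15 to 17.2% of all rows' counts were not uniquely aligned, and of the rest 5.08 to 8.77% had no feature and 1.46 to 1.62% were ambiguous. In the deposited E14 peak lists, fold enrichment is a ratio to the authors' control and the −log10 p-value was not used for a call; the submitters' processing notes name MACS2 2.1.1.20160309. Interaction lists deposited by the authors give counts of paired-end tags. Of the gene identifiers, 99.6% matched a symbol.

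Counts were fitted with edgeR 4.0.16 (R 4.3.3, limma 3.58.1): TMM factors, filterByExpr, line as the factor and all 26 libraries in 1 quasi-likelihood fit, which left 19993 genes. Contrasts took the mean of the 2 clones of a deletion, and p-values were adjusted over all tested genes (Benjamini-Hochberg, threshold 0.05). Log2 CPM used a prior count of 2. Libraries of a line differed by more than sampling noise (chi-square per degree of freedom 4.27 to 56). The procedure was tested on simulated data. A peak or anchor counted at a gene within 2 kb of its start. The 10 genes and the other lists were chosen with earlier results of these data known. From each other list at most 3 genes are named, those with the largest change called in both clones of a deletion; likeness names up to 3 genes with at least 1 CPM. Alternatives were other factors, filters, DESeq2 1.42.0, a 1.5-fold test, thinned counts, fewer lines, a replicate block, a threshold of 0.01, each library left out, and other peak distances and folds.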

Additional observations from a re-analysis of the deposited data

Results flagged for a closer look

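Between the 2 chr2 clones, 3 genes moved in opposite ways or in 1 clone alone. Clone G5 was below D10 by -1.52 for Mov10l1, by -1.10 for Ddx4 and by -1.06 for Sycp3 (log2, edgeR's quasi-likelihood test of the difference, adjusted p = 2.39e-12, 2.31e-14 and 7.75e-12). Each was past a 2-fold difference. Against the parental line, Mov10l1 was 0.85 higher in D10 and differed by -0.67 in G5, and Ddx4 0.25 higher in D10 and differed by -0.84 in G5, all past the threshold. Sycp3 was 1.137 higher in D10 (adjusted p = 1.59e-13) and differed by 0.08 in G5 (adjusted p = 0.467). These 2 clones also differed in primitive endoderm markers, which summed to 938 to 1014 CPM in D10 and 661 to 684 CPM in G5. The part of those markers in the difference was not tested.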

How the results depend on the processing

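No value changed its direction past the threshold under the alternatives run. Of the comparisons of single genes, 711 stayed on the same side, 11 passed newly and 38 no longer passed; with single libraries left out the counts were 2063, 6 and 11. Tested against a 1.5-fold change, the genes called against the parental line numbered 4 in chr9, 3 in chr7, 2 in chr3 and 5 in chr2, of 895, 4004, 3287 and 4303 genes in all (4.48%, 20%, 16.4% and 21.5% of tested genes). In chr7 and chr3 the count is near that share. In the same test, 2, 3 and 2 were higher in both clones of chr9, chr7 and chr3. The shares over all genes were not computed for this count, and the chr2 count is not given here. It called 1 between the chr9 clones and 5 between the chr2 clones (0.96% and 10.4% of all genes). Against the other clones it called 2 in chr9, 4 in chr7, 3 in chr3 and 4 in chr2 (22.6%, 6.56%, 8.08% and 9.51% of all genes). Between deletions it called 7 for chr9 and chr7, 6 for chr9 and chr3, 1 for chr9 and chr2 and 0 for chr7 and chr3 (26.1%, 25.2%, 14.9% and 0.27% of all genes). For chr7 and chr2 it called 7, and for chr3 and chr2 5 (12.1% and 13.9% of all genes). This test asks for a larger change by its construction. With single libraries left out, the genes called between the chr7 clones ranged from 0 to 1. No gene kept a PRC2 peak at 5-fold or more, and 5 had an E14 interaction anchor over the start itself.

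Replicate numbers did not pair the libraries: same-numbered libraries of different lines had deviations correlated from -0.53 to 0.41 (median -0.01), and 8 of 26 libraries correlated best with their own number. With the replicate block, the genes called against the parental line numbered 9, 8, 9 and 8 in chr9, chr7, chr3 and chr2, of 7387, 12573, 12079 and 12973 genes in all. Between clones the block gave 7, 0, 0 and 9, and it left 6, 7, 5 and 5 higher in both clones. Precision is limited by 2 or 3 libraries a line and by depths that differ between deletions, which thinning equalises without removing a batch.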
